A study of Mus musculus with 8 samples.

Results

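The genes described here are the regulators of the hypoxia-inducible factors (HIFs) and the non-glycolytic transcripts that low oxygen is known to raise. They were taken from a list of 32 gene symbols: 4 HIF subunits, 5 oxygen sensors and parts of the HIF destruction machinery, and 23 hypoxia targets. All 32 were found among the 49315 genes of the count files and all 32 passed the filter on low counts. RNA had been sequenced from dissected mouse hearts late in gestation, at stage E18.5. The mutant group was 4 hearts homozygous for the M195I change in CHD4, the ATPase of the NuRD chromatin-remodelling complex, and the other group was 4 wild-type (WT) hearts. The labels name no strain, litter or batch, so p-values measure the spread between these samples, which may be in part technical. The comparison asks how the transcript levels differ between mutant and WT hearts.

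HIFs are pairs of an oxygen-regulated alpha subunit and the constant beta subunit ARNT. In oxygen, prolyl hydroxylases of the EGLN family mark the alpha subunits, VHL then recruits a ubiquitin ligase, and the marked proteins are destroyed. When oxygen is scarce the alpha subunits persist, enter the nucleus and raise genes for glucose use, mitochondrial turnover, blood vessel growth and their own inhibitors, among them EGLN3. The fetal heart works at low oxygen and relies on glycolysis. Control of the alpha subunits acts largely on the protein, which RNA counts do not show.

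Total counts ranged from 18673488 to 21341235 in the mutant libraries and from 18375951 to 20815388 in the WT libraries. Levels are in counts per 1000000 counts of the library (CPM) scaled by TMM, log2 fold changes are mutant over WT, each followed by its standard error, and each p was adjusted by Benjamini and Hochberg's method over the 16372 genes that edgeR's quasi-likelihood test covered; a gene is called at an adjusted p under 0.05. The defining cardiomyocyte markers were abundant in every library, with a summed level from 45700 to 50700 CPM in mutant and from 52100 to 57100 CPM in WT hearts, and 1 of the 8, Actc1, fell. Some libraries stood apart. The airway secretoglobin Scgb3a2 was abundant in mutant replicates 3 (284 CPM) and 4 (498 CPM) and in WT replicates 1, 3 and 4 (176 to 436 CPM). It was scarce in mutant replicates 1 (6.48 CPM) and 2 (0.328 CPM) and in WT replicate 2 (0.817 CPM). The 8 erythroid markers summed to 1270 to 2000 CPM in mutant and 2020 to 3810 CPM in WT hearts, highest in WT replicates 1 and 4, and none of the 8 was called. The Y-linked transcripts Ddx3y, Eif2s3y, Kdm5d and Uty summed to 203 to 214 CPM in the mutant libraries and to 204 to 215 CPM in WT replicates 1 to 3, but to 101 CPM in WT replicate 4, while Xist was between 1.25 and 1.98 CPM in all 8 libraries. These marker levels are CPM of the library totals, without TMM.

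Of the 32 genes, 17 fell in the mutant hearts, 1 rose and 14 were not called. By class, 14 of the 23 targets fell and 1 rose, and 3 of the 9 subunits and sensors fell and none rose. Among all tested genes, 7.49% were called lower and 5.75% higher (13.2% in either direction), against 53.1% and 3.12% of the 32. Their median log2 fold change was -0.29 where that of all tested genes was 0.00, and 24 of the 32 values were negative. The largest falls were those of Bnip3, Egln3 and Rora, whose mutant levels were 0.568, 0.569 and 0.590 times the WT levels. With library totals in place of TMM, 15 of the 32 fell, 1 rose and 21 values were negative, while over all genes the calls shifted to 1856 higher and 858 lower, against 942 higher and 1226 lower with TMM.

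**Figure D1:**
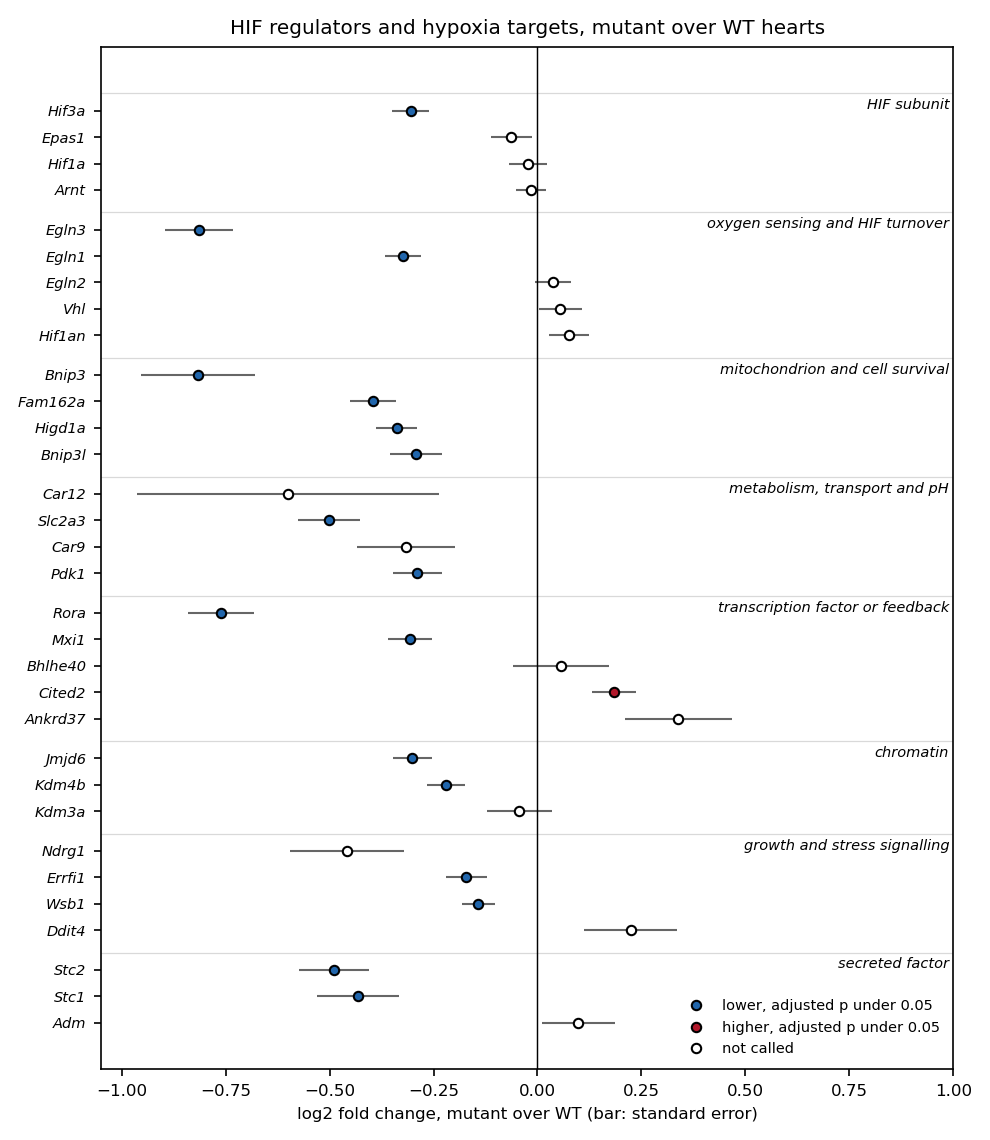
Log2 fold change of each of the 32 genes, mutant over WT hearts (n = 4 each), grouped by role, with the standard error of the fit as a bar; filled points are called at an adjusted p under 0.05. The values run from -0.82 for Bnip3 to 0.34 for Ankrd37, and every gene of the mitochondrial group lies to the left of 0.

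Among the HIF subunits, only the transcript of the alpha subunit gene Hif3a was called. Hif3a encodes several isoforms, some of which act as inhibitors of the other alpha subunits. It lies on chromosome 7, 17031507 to 17062427 (GRCm38), and its level was 132, 125, 129 and 129 CPM in mutant replicates 1 to 4, against 166, 148, 154 and 169 CPM in WT replicates 1 to 4. All 4 mutant values lay below all 4 WT values, and Hif3a fell (-0.30 ± 0.04, adjusted p = 0.00042).

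The main alpha subunit gene Hif1a was at 222, 196, 199 and 192 CPM in mutant replicates 1 to 4, against 209, 199, 209.5 and 205 CPM in WT replicates 1 to 4. The genotypes overlapped and the difference did not pass (-0.02 ± 0.05, adjusted p = 0.81). Epas1, the alpha subunit best known from endothelium, was at 106, 111, 112 and 127 CPM in mutant replicates 1 to 4, against 120.1, 117, 118 and 121 CPM in WT replicates 1 to 4, again with overlap (-0.06 ± 0.05, adjusted p = 0.46). The beta subunit gene Arnt was at 92.5, 92.1, 93.3 and 93.9 CPM in mutant replicates 1 to 4, against 93.3, 92.9, 90.7 and 99.0 CPM in WT replicates 1 to 4, a difference of -0.02 ± 0.04, adjusted p = 0.85. Mutant replicate 1 was the highest of all 8 libraries in Hif1a and mutant replicate 4 the highest in Epas1.

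In RPKM, the CPM per kilobase of exon, Hif1a was the most abundant alpha subunit, at 34.3 ± 2.23 in mutant and 34.9 ± 0.82 in WT hearts (SD, n = 4). Hif3a stood at 19.2 ± 0.441 in mutant and 23.7 ± 1.46 in WT hearts on this scale, and Epas1 at 21.5 ± 1.71 in mutant and 22.4 ± 0.376 in WT hearts. In WT hearts the ranges of Hif3a and Epas1 overlapped, whereas in mutant hearts every Hif3a level (18.7 to 19.7) was below every Epas1 level (19.9 to 23.9). Arnt was lower than the alpha subunits, at 11.6 ± 0.102 in mutant and 11.7 ± 0.444 in WT hearts.

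Of the oxygen sensors, both prolyl hydroxylases that are themselves hypoxia targets fell. Egln3 (chromosome 12, 54178981 to 54203860) was at 117, 115, 96.8 and 89.7 CPM in mutant replicates 1 to 4, against 178, 183, 183 and 192 CPM in WT replicates 1 to 4. The highest mutant library, at 117 CPM, was far below the lowest WT library, at 178 CPM, and Egln3 fell (-0.81 ± 0.08, adjusted p = 0.00033). Egln1 (chromosome 8, 124908587 to 124949324), which encodes the main sensor of normal oxygen, was at 224, 226, 210.5 and 207 CPM in mutant replicates 1 to 4, against 269.6, 284, 256 and 274 CPM in WT replicates 1 to 4. Its genotypes did not overlap either, and it fell (-0.32 ± 0.04, adjusted p = 0.00021).

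The sensor gene that hypoxia is not known to raise, Egln2, was at 62.3, 66.8, 68.0 and 64.7 CPM in mutant replicates 1 to 4, against 61.5, 63.4, 65.6 and 64.6 CPM in WT replicates 1 to 4, with overlap (0.04 ± 0.04, adjusted p = 0.65). Vhl, whose product recognises the hydroxylated alpha subunits, was at 31.4, 31.3, 30.4 and 29.2 CPM in mutant replicates 1 to 4, against 30.0, 29.3, 27.6 and 30.8 CPM in WT replicates 1 to 4 (0.05 ± 0.05, adjusted p = 0.57). Hif1an, which encodes the asparaginyl hydroxylase that blocks HIF from its coactivators, was at 105, 109, 114 and 104 CPM in mutant replicates 1 to 4, against 105, 95.3, 100.1 and 110.4 CPM in WT replicates 1 to 4 (0.08 ± 0.05, adjusted p = 0.35). In these 3 genes the mutant and WT libraries were intermixed. In RPKM, Egln1 was the most abundant of the 3 prolyl hydroxylases, at 60.3 ± 2.64 in mutant and 75.5 ± 3.27 in WT hearts. Egln3 was at 39.3 ± 5.07 in mutant and 69.1 ± 2.08 in WT hearts, close to Egln1 in WT only, and Egln2 was at 23.4 ± 0.888 in mutant and 22.8 ± 0.624 in WT hearts.

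**Figure D2:**
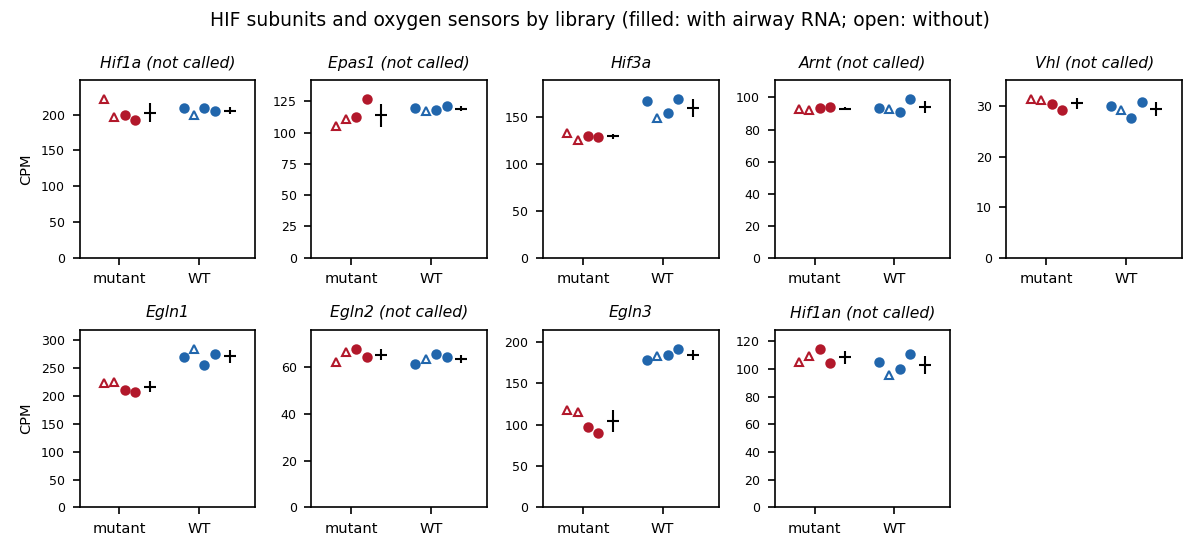
Levels in CPM (axes from 0) of the 4 HIF subunits and 5 sensors in each library, mutant left of WT; circles are libraries with airway RNA, open triangles those without, and the cross gives the mean ± SD (n = 4). Hif3a, Egln1 and Egln3 are the 3 genes whose genotypes do not overlap; the other 6 do.

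All 4 targets that act at the mitochondrion or in cell survival fell. Bnip3 (chromosome 7, 138890836 to 138909519), a receptor for the removal of mitochondria by autophagy, was at 159, 154, 115 and 115 CPM in mutant replicates 1 to 4, against 247, 263, 217 and 229.5 CPM in WT replicates 1 to 4. The gap between genotypes, from 159 CPM at most in mutant to 217 CPM at least in WT hearts, was wider than the range within either one, although mutant replicates 1 and 2 lay well above mutant replicates 3 and 4. Bnip3 fell (-0.82 ± 0.14, adjusted p = 0.011). Its paralogue Bnip3l, which also serves mitochondrial clearance in maturing red cells, was at 109, 119.6, 96.6 and 103 CPM in mutant replicates 1 to 4, against 141, 129, 123 and 131 CPM in WT replicates 1 to 4 and fell (-0.29 ± 0.06, adjusted p = 0.0089).

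Fam162a, a mitochondrial protein gene, was the most abundant of the 32 per kilobase, at 298 ± 22.9 in mutant and 392 ± 21.9 in WT hearts in RPKM. In CPM it was at 191, 209, 178 and 178 CPM in mutant replicates 1 to 4, against 241, 269.5, 241 and 244 CPM in WT replicates 1 to 4. The genotypes were apart, and Fam162a fell (-0.40 ± 0.05, adjusted p = 0.00039). Higd1a, which binds the respiratory chain, was at 102, 96.9, 93.1 and 86.1 CPM in mutant replicates 1 to 4, against 117, 126, 119 and 116 CPM in WT replicates 1 to 4 and fell too, with no overlap (-0.34 ± 0.05, adjusted p = 0.00043). Exons of Higd1a and Bnip3 overlap those of Gm47112 and Gm45507 on the other strand over 22.5% and 22.3% of their length; these neighbours held at most 8 and 0 counts per library. Bnip3l has the pseudogene Bnip3l-ps, with 7 to 21 counts per library.

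Among metabolic and transport genes, 2 of 4 fell. Pdk1, the kinase that holds pyruvate back from the mitochondrion, was at 394, 399.9, 329.7 and 341 CPM in mutant replicates 1 to 4, against 447, 461, 430.1 and 451 CPM in WT replicates 1 to 4. Every mutant library was lower than every WT library (-0.29 ± 0.06, adjusted p = 0.0068). Slc2a3, a glucose transporter of high affinity, was at 20.0, 20.3, 17.4 and 16.9 CPM in mutant replicates 1 to 4, against 25.5, 29.0, 24.9 and 26.3 CPM in WT replicates 1 to 4, without overlap (-0.50 ± 0.07, adjusted p = 0.00045). The carbonic anhydrases that adjust pH were scarce and not called. Car9 was at 5.71 ± 0.789 CPM in mutant and 7.12 ± 0.515 CPM in WT hearts (-0.32 ± 0.12, adjusted p = 0.094), and Car12 had 5 to 17 counts in the mutant and 12 to 17 counts in the WT libraries (-0.60 ± 0.36, adjusted p = 0.33). Exons of Car9 overlap those of Gm12454 on the other strand over 9.29% of its length. Gm12454 held 53 to 87 counts per library.

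The transcription factors and feedback genes moved both ways. Rora (chromosome 9, 68653786 to 69388246), a nuclear receptor of the circadian and lipid programmes, was at 21.3, 24.1, 18.1 and 18.8 CPM in mutant replicates 1 to 4, against 34.6, 37.0, 33.6 and 34.3 CPM in WT replicates 1 to 4. The WT libraries lay close together and the mutant libraries all below them, and Rora had the smallest adjusted p of the 32 (-0.76 ± 0.08, adjusted p = 5.0e-05). Mxi1, a MAX partner that opposes MYC, was at 59.2, 63.6, 53.8 and 55.5 CPM in mutant replicates 1 to 4, against 70.7, 72.4, 68.9 and 75.2 CPM in WT replicates 1 to 4, without overlap, and fell (-0.31 ± 0.05, adjusted p = 0.0014).

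Cited2, whose product competes with HIF alpha for the coactivators p300 and CBP, was the 1 gene of the 32 that rose. It lies on chromosome 10, 17723228 to 17725673 and was at 40.5, 39.0, 39.2 and 44.6 CPM in mutant replicates 1 to 4, against 35.7, 34.8, 36.2 and 37.0 CPM in WT replicates 1 to 4. The lowest mutant library, 39.0 CPM, was above the highest WT library, 37.0 CPM, by a small margin (0.18 ± 0.05, adjusted p = 0.031), and the call was lost without mutant replicate 4 or without WT replicate 1, 2 or 3 (adjusted p up to 0.0995). Ankrd37, an ankyrin-repeat gene induced by HIF, was at 9.46, 8.23, 8.30 and 9.35 CPM in mutant replicates 1 to 4, against 7.83, 5.29, 8.31 and 6.50 CPM in WT replicates 1 to 4, with overlap and no call (0.34 ± 0.13, adjusted p = 0.098). On the other strand, its exons overlap those of Lrp2bp over 22.7% and of Ufsp2 over 3.7% of its length. These neighbours held 22 to 41 and 496 to 626 counts per library. The repressor gene Bhlhe40 was at 61.9, 49.1, 53.7 and 45.8 CPM in mutant replicates 1 to 4, against 50.9, 42.4, 52.1 and 56.9 CPM in WT replicates 1 to 4, fully intermixed (0.06 ± 0.12, adjusted p = 0.83).

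Of the chromatin genes, the demethylase Kdm4b was at 77.9, 78.6, 77.4 and 69.3 CPM in mutant replicates 1 to 4, against 86.1, 88.0, 87.1 and 91.8 CPM in WT replicates 1 to 4, and the hydroxylase Jmjd6 at 67.1, 63.2, 60.1 and 60.0 CPM in mutant replicates 1 to 4, against 75.0, 81.7, 75.9 and 75.8 CPM in WT replicates 1 to 4. Both were lower in every mutant than in any WT library and both fell (Kdm4b -0.22 ± 0.04, adjusted p = 0.0046; Jmjd6 -0.30 ± 0.05, adjusted p = 0.00066). Exons of Jmjd6 overlap Mettl23, a gene with 427 to 521 counts per library, over 3.66% of its length. Kdm3a, a demethylase and one of the best known HIF targets of this class, ranged from 66.3 to 80.6 CPM in mutant and 69.1 to 82.2 CPM in WT hearts and was not called (-0.04 ± 0.08, adjusted p = 0.80).

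The growth and stress signalling genes included the weakest calls. Errfi1, an inhibitor of the epidermal growth factor receptor, was at 26.0, 26.4, 27.6 and 27.1 CPM in mutant replicates 1 to 4, against 29.5, 30.8, 29.3 and 31.0 CPM in WT replicates 1 to 4 (-0.17 ± 0.05, adjusted p = 0.033), and the ubiquitin ligase adaptor Wsb1 at 109.5, 115, 113 and 109 CPM in mutant replicates 1 to 4, against 118, 131, 120.0 and 123 CPM in WT replicates 1 to 4 (-0.14 ± 0.04, adjusted p = 0.031). In both genes the genotypes did not overlap, but the differences were small, and the calls were lost without any 1 of 7 libraries for Errfi1 and without any 1 of 5 for Wsb1 (adjusted p up to 0.0856 and 0.0861). Errfi1 was also lost with DESeq2, and both with library totals. Ndrg1, a stress-induced gene of cell differentiation, was at 74.7, 74.6, 57.7 and 60.2 CPM in mutant replicates 1 to 4, against 88.2, 78.4, 90.7 and 110.0 CPM in WT replicates 1 to 4. Its genotypes did not overlap, but the spread within each was wide and it was not called (-0.46 ± 0.14, adjusted p = 0.079); DESeq2 and limma-voom did call it (adjusted p = 0.00027 and 0.022). Ddit4, an inhibitor of mTOR, was at 53.4 ± 7.88 CPM in mutant and 45.7 ± 4.39 CPM in WT hearts (SD, n = 4), with overlap and no call (0.22 ± 0.11, adjusted p = 0.26).

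Among secreted factors, both stanniocalcins fell. Stc1 was at 13.9, 11.4, 12.3 and 10.6 CPM in mutant replicates 1 to 4, against 18.7, 15.9, 16.1 and 14.2 CPM in WT replicates 1 to 4 (-0.43 ± 0.10, adjusted p = 0.0093), and Stc2 at 20.8, 19.0, 21.1 and 20.1 CPM in mutant replicates 1 to 4, against 27.7, 23.5, 31.2 and 31.3 CPM in WT replicates 1 to 4 (-0.49 ± 0.08, adjusted p = 0.0017). Each was lower in every mutant than in any WT library, by a narrow margin in Stc1 (13.9 CPM at most in mutant, 14.2 CPM at least in WT hearts). The vasodilator peptide gene Adm, a target that hypoxia raises in many cell types, ranged from 16.1 to 21.4 CPM in mutant and 15.4 to 18.3 CPM in WT hearts and was not called (0.10 ± 0.09, adjusted p = 0.54). The 5 targets with a positive log2 fold change were Cited2, which was called, and Ankrd37, Ddit4, Adm and Bhlhe40, which were not. Without overlap between genotypes, 18 of the 32 were lower and 1 higher in the mutants, against 9.77% lower and 8.8% higher (18.6% in either direction) among all tested genes.

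**Figure D3:**
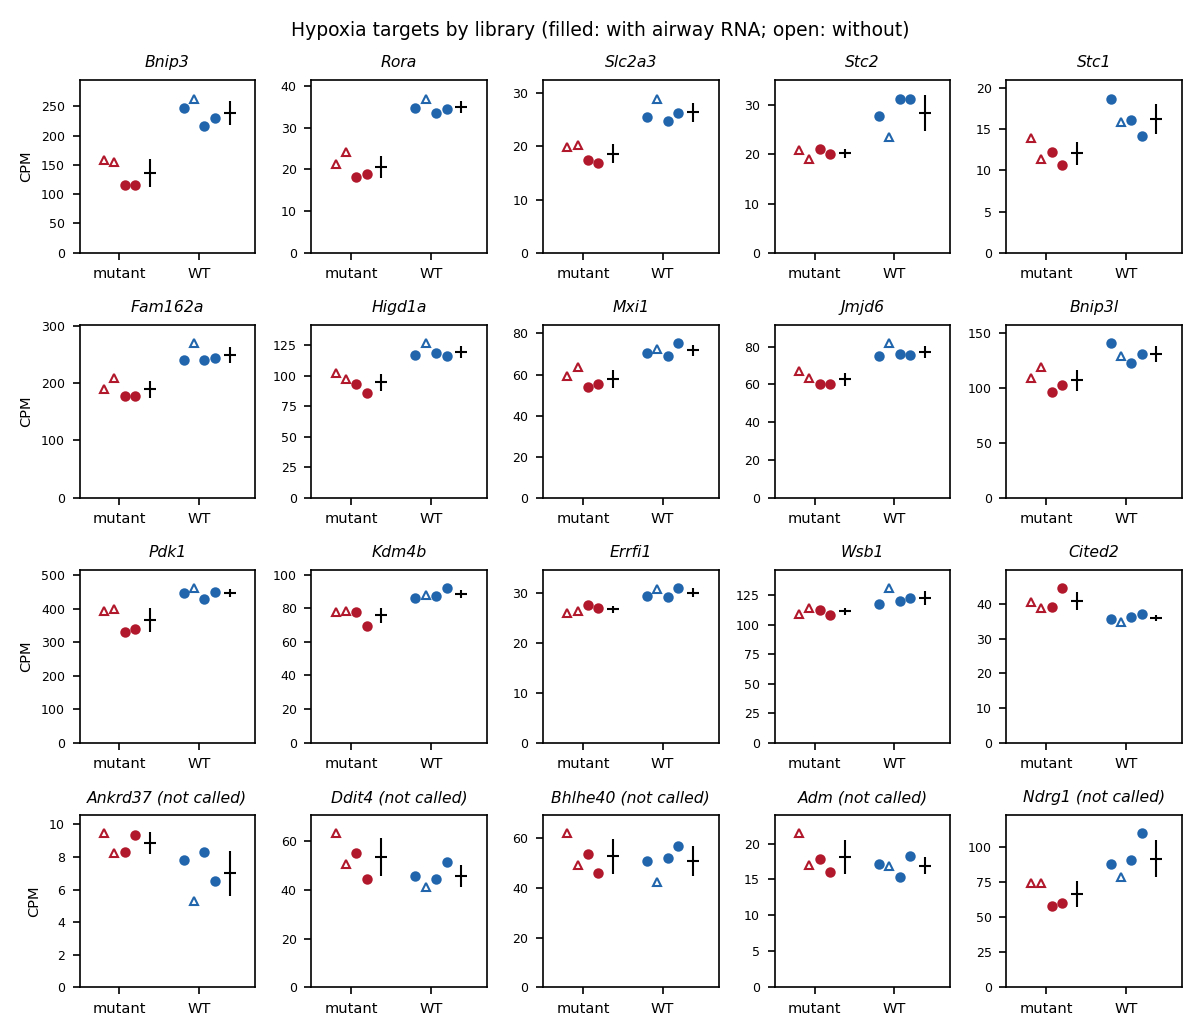
Levels in CPM (axes from 0) of the 14 hypoxia targets that fell, of Cited2, which rose, and of 5 targets that were not called, in each library with mutant left of WT; symbols as for the subunits and sensors, with mean ± SD (n = 4). Bnip3 and Rora are the 2 targets with the largest falls, and in both the open triangles of the mutants lie above the filled circles.

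Promoters are shown for the genes with the largest falls, Bnip3, Egln3 and Rora, for the abundant Fam162a, and for Cited2, which moved the other way. HIFs bind a short core within hypoxia response elements, searched here as the letters ACGTG and GCGTG on both strands; a palindromic CACGTG, the E-box that MYC and circadian factors also bind, counts as an ACGTG on each strand. The sequences are the 250 bases before the RefSeq start (GRCm38.p6), 5′ to 3′ on the gene's strand, with the core in capitals on either strand.
Bnip3, chr7:138909507-138909756, minus strand: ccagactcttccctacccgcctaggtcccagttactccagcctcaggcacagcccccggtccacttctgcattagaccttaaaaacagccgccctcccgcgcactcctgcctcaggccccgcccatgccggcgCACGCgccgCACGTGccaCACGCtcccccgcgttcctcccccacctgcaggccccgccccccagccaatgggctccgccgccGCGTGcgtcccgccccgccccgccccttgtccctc
Egln3, chr12:54203875-54204124, minus strand: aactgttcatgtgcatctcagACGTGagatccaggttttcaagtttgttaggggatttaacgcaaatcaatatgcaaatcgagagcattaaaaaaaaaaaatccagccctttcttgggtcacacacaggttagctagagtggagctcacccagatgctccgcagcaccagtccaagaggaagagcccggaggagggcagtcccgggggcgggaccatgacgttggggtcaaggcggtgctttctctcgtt
Rora, chr9:68653536-68653785, plus strand: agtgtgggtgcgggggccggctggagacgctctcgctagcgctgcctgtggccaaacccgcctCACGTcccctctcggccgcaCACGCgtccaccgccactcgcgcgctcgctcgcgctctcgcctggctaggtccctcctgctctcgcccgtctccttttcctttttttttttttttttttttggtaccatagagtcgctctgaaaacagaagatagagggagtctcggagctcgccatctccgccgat
Fam162a, chr16:36071562-36071811, minus strand: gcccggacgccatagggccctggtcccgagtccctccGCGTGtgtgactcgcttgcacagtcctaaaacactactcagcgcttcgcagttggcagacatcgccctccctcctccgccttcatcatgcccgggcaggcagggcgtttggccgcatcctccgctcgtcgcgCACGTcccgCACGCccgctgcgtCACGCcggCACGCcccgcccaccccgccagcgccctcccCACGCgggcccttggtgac
Cited2, chr10:17722978-17723227, plus strand: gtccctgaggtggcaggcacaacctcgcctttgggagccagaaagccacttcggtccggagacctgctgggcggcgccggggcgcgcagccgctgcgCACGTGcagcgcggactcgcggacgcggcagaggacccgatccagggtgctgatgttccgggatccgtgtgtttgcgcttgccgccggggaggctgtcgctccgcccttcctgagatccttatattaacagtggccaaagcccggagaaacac

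Bnip3 held 5 cores by this count, 2 of them the strands of 1 CACGTG that begins at position -108 from the start. Fam162a held 6, Rora 2 and Egln3 1, the last at position -229. The single CACGTG of Cited2 begins at position -153. RefSeq gave 33 promoters for 25 of the 32 genes, and 24 of these promoters (72.7%) held a core, against 53.5% of the 14958 promoters of tested genes and 38.6% of all 32851 promoters. By call, a core was present in 14 of the 18 promoters of genes that fell and in 9 of the 14 of genes that were not called. Alternative starts of a gene count separately here, so these are shares of promoters and not of genes. With ACGTG alone the numbers were 10 of 18 and 5 of 14, against 20.7% of the promoters of tested genes. These are matches of letters in a window and not measured binding. The searched genes with no match in any of their windows were Vhl, Hif1an and Car12. Ankrd37 and Hif1a, which were not called either, held 4 and 3 cores by this count. Epas1, Ndrg1, Bnip3l, Slc2a3, Bhlhe40, Kdm4b and Stc1 were not searched.

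The other lists of the pathway were drawn up from general knowledge, but with earlier results of these data known, and were read beside these genes. Of all tested genes, 7.49% were called lower and 5.75% higher. Of 18 glycolytic HIF targets, 14 fell and the log2 fold changes of all 18 were negative (median -0.29). The clearest were the phosphofructokinase Pfkp (-0.53 ± 0.05, adjusted p = 1.6e-05), the lactate exporter Slc16a3 (-0.79 ± 0.07, adjusted p = 8.7e-05) and the pyruvate kinase Pkm (-0.37 ± 0.04, adjusted p = 0.00011). Of 14 tested vascular and matrix targets, 7 fell and none rose (median -0.34), among them the collagen-modifying enzymes P4ha2 (-0.61 ± 0.04, adjusted p = 2.1e-06), Plod1 (-0.44 ± 0.05, adjusted p = 6.7e-05) and Plod2 (-0.74 ± 0.07, adjusted p = 8.2e-05). The angiogenic factor Vegfa, named after its values were seen, was at 367 ± 48.5 CPM in mutant and 567 ± 25.8 CPM in WT hearts (-0.63 ± 0.09, adjusted p = 0.0025). In this list 13 of 14 values were negative, the exception being the transferrin receptor gene Tfrc (0.31 ± 0.09, adjusted p = 0.052). The erythropoietin gene Epo was not tested.

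The HIF cofactors and parts of the destruction machinery came to 1 of 13 lower, 2 higher and a median of -0.02, where 7.49% of all tested genes were lower and 5.75% higher; a single lower gene is at the level of that background. The coactivator genes Ep300 (0.16 ± 0.05, adjusted p = 0.027) and Crebbp (0.17 ± 0.05, adjusted p = 0.027), which encode p300 and CBP, rose. The ubiquitin ligase gene Siah2, which targets prolyl hydroxylases for destruction, fell (-0.46 ± 0.09, adjusted p = 0.0028). The 10 others were not called, among them the VHL partners Cul2, Elob, Eloc and Rbx1, whose log2 fold changes lay between -0.05 and -0.0018.

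**Figure D4:**
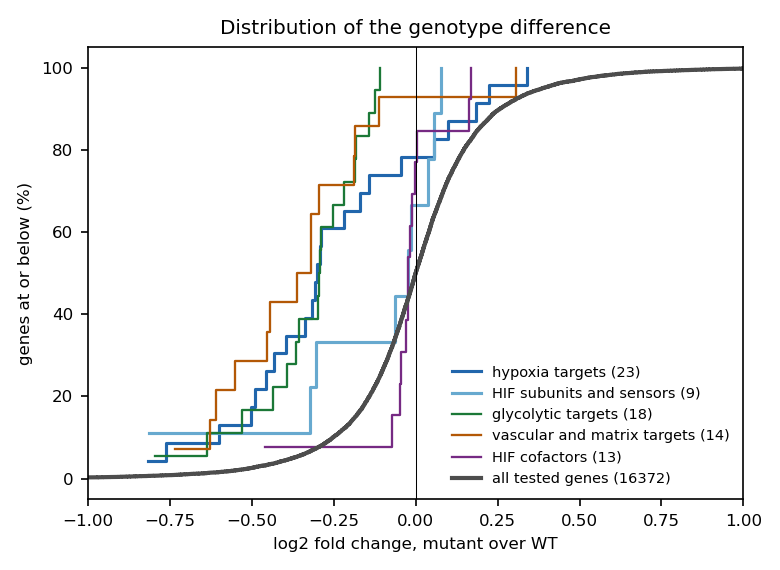
Share of genes (%) at or below each log2 fold change, mutant over WT, for the 23 hypoxia targets, the 9 HIF subunits and sensors, the other lists of the pathway and all 16372 tested genes; the numbers in the key are genes. The curves of the 3 target lists lie left of the curve of all genes over most of their length, with medians of -0.30, -0.29 and -0.34, while that of the HIF cofactors, with a median of -0.02, rises steeply near 0.

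Within the mutants, the libraries with and without airway RNA differed in many of these genes. In 15 of the 32, both mutant libraries without airway RNA lay above both with it, and in 3 (Epas1, Arnt and Errfi1) below, against 19.9% and 19.4% of all tested genes. Of the 17 that fell, 12 lay above in this way and Errfi1 below. The genotypes were also compared within each kind of library. The 5 libraries with airway RNA (2 mutant, 3 WT) were not matched in it, as only mutant replicate 4 was rich in Sftpc. In these 5, 17 of the 32 fell and none rose, against 6.33% lower and 3.63% higher among all genes tested there. These were 15 of the 17 genes called over all libraries, together with Kdm3a and Ndrg1, while Errfi1 and Wsb1 were not called. In the 3 libraries without airway RNA (2 mutant, 1 WT) the WT side is replicate 2 alone, so each value there rests on that library and is given as a description; the standard errors assume that it varies like the mutant pair. All 17 genes had negative values in both kinds of library. Their lack of overlap between genotypes over the 8 libraries made this all but certain, so it adds no evidence.

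Bnip3 was at -1.01 ± 0.05 in the libraries with airway RNA and -0.74 ± 0.07 in those without, Egln3 at -0.99 ± 0.05 in the libraries with airway RNA and -0.65 ± 0.07 in those without, and Fam162a at -0.44 ± 0.04 in the libraries with airway RNA and -0.43 ± 0.07 in those without. Ndrg1 was at -0.71 ± 0.10 in the libraries with airway RNA and -0.07 ± 0.08 in those without, and Kdm3a at -0.23 ± 0.05 in the libraries with airway RNA and 0.22 ± 0.08 in those without. Ankrd37, Bhlhe40 and Ddit4 were at 0.22, -0.10 and 0.08 with airway RNA and at 0.74, 0.39 and 0.47 without it. WT replicate 2 was the lowest of the 4 WT libraries in Ndrg1, Kdm3a, Ankrd37, Bhlhe40 and Ddit4. Among the 17 genes that fell, WT replicate 2 was the lowest WT library in Hif3a and Stc2. It was the highest WT library in Bnip3, Egln1, Fam162a, Higd1a, Jmjd6, Pdk1, Rora, Slc2a3 and Wsb1. The difference between strata, tested as an interaction over all genes, passed for none of the 32 and for 1 of 16372 genes. It rests on the same lone WT library. At an unadjusted p under 0.05 it passed for 9 of the 32, against 7.34% of all genes, and Kdm3a had the smallest adjusted p of the 32 (0.10). The part of airway tissue itself in these differences was not tested.

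**Figure D5:**
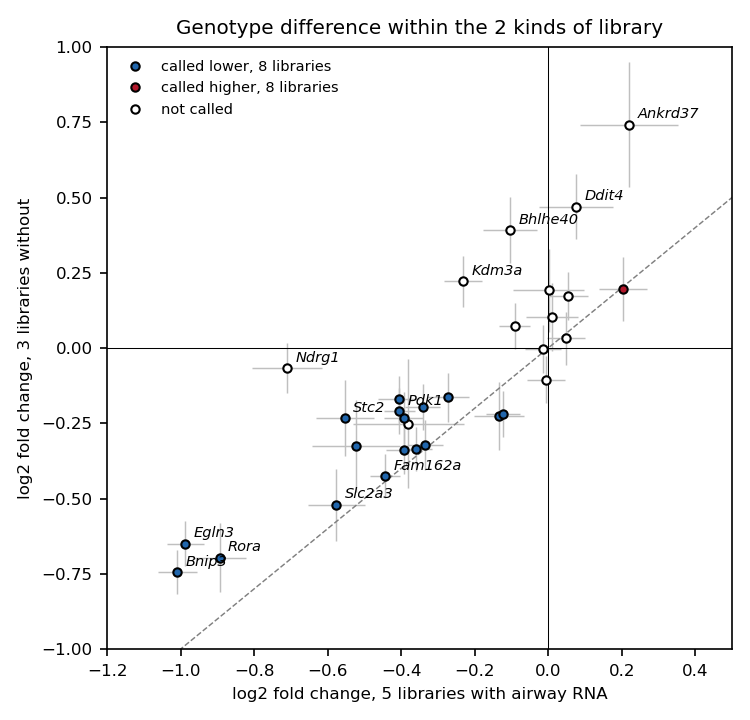
Log2 fold change, mutant over WT, in the 5 libraries with airway RNA (x axis) against the 3 without (y axis), with standard errors, for all of the genes but the scarce Car12; the dashed line marks equal values. The y values rest on 1 WT library. Bnip3, Egln3 and Rora lie far below 0 on both axes, and most of the genes, these 3 included, lie above the line.

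Other transcripts moved with the genotype beside these genes. The erythroid markers did not overlap between genotypes in their sum. WT replicates 2 and 3 alone were then set against all 4 mutants. The erythroid sums there were 1270 to 2000 CPM in mutant and 2020 to 2140 CPM in WT hearts. Of the 17 genes, 10 were still called lower (2.91% of all genes), and none of the 32 was called higher. All 17 values were negative, which the lack of overlap between genotypes made all but certain. With the erythroid markers as a covariate, 11 were called lower (4.24% of all genes). Bnip3, Bnip3l, Errfi1, Kdm4b, Pdk1 and Stc1 were called in neither fit, and Wsb1 not in the first. Their log2 fold changes in the first were -0.82 for Bnip3, -0.24 for Bnip3l, -0.17 for Errfi1, -0.21 for Kdm4b, -0.28 for Pdk1 and -0.41 for Stc1. With the erythroid covariate they were -0.73 for Bnip3, -0.20 for Bnip3l, -0.19 for Errfi1, -0.20 for Kdm4b, -0.23 for Pdk1 and -0.36 for Stc1. With Xist as a covariate, the calls of Hif3a, Egln3 and Rora were kept and those of the other 14 were lost (0.861% of all genes were called lower). The cardiomyocyte marker sum was lower in every mutant library, but of its 8 genes only Actc1 was called. The 7 others had log2 fold changes from -0.37 for Myh6 to 0.08 for Nkx2-5. Of the 8 values, 7 were negative, with a median of -0.12. The endothelial sums overlapped, at 1380 to 1510 CPM in mutant and 1370 to 1430 CPM in WT hearts. The fibroblast, smooth muscle and macrophage sums overlapped too. Within these lists, Tek of the 8 endothelial and Lyz2 of the 6 macrophage markers rose. Kdr of the endothelial, Tcf21 and Postn of the 7 fibroblast and Acta2 of the 6 smooth muscle markers fell. Of all tested genes, 5.75% were called higher and 7.49% lower. Immediate early transcripts, which handling of tissue can raise, were lower too: 4 of 8 fell, against 7.49% of all tested genes, with a sum of 132 to 160 CPM in mutant and 189 to 239 CPM in WT hearts. The part of these transcripts in the falls of the hypoxia targets was not tested. In bulk tissue, fewer cells of a type and less RNA per cell cannot be told apart. Without WT replicate 4, whose Y-linked transcripts were low, 15 of the 32 fell and 1 rose. Of all genes tested there, 5.58% were lower and 4.04% higher.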

How the data were processed

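RNA had been extracted from dissected hearts with Trizol, per the labels' protocols, which also name the Illumina TruSeq RNA Sample Prep kit. The submitters' processing notes name Trimmomatic 0.36, STAR 2.5.2b, featureCounts of Subread 1.5.2, and the build GRCm38 or mm10. The deposited values are whole-number counts of reads per gene in each library; the series-wide table held the same values. Neither an annotation release nor a strand setting is given in the sources used here. Per the file headers, the libraries carry the word "Male".

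Symbols came from GENCODE M21. Genes were filtered with filterByExpr (minimum count 10), scaled by TMM (factors 1.01 to 1.03 in mutant and 0.963 to 0.993 in WT libraries) and compared with the robust quasi-likelihood test of edgeR 4.0.16 in R 4.3.3, without covariates. The procedure was tested on simulated data. No pair of replicates agreed within sampling noise (chi-square per degree of freedom at least 2.72). Alternatives used DESeq2 1.42.0, limma 3.58.1, other scalings, filters and covariates, left-out libraries and strata by Scgb3a2 (at least 10 CPM). The comparison of WT replicates 2 and 3 with all mutants, the interaction with airway RNA and the order within the mutants were chosen after seeing the data. The genes and lists were chosen with earlier results of these data known. Genes called, and all subunits and sensors, were to be given in every library; of each other list, up to 3 called genes per direction are named. Ankrd37, Bhlhe40 and Ndrg1 were given in every library, and Vegfa was named, after their values were seen.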

Additional observations from a re-analysis of the deposited data

Results flagged for a closer look

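In 4 of 64 groups of 4 libraries, 1 library stood far from the other 3 by Dixon's ratio of gap to range (above 0.829); chance gives about 1 in 20 such groups. Fam162a was at 269 CPM in WT replicate 2, against 241 to 244 CPM in the other WT libraries. Jmjd6 was at 81.7 CPM in the same library, against 75.0 to 75.9 CPM. Kdm4b was at 69.3 CPM in mutant replicate 4, against 77.4 to 78.6 CPM in the other mutants. Car12 was at 0.925 CPM in WT replicate 1, against 0.643 to 0.667 CPM, that is, 17 counts against 12 or 13.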

How the results depend on the processing

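The 17 genes called lower had negative values under every alternative run. In fits of fewer libraries this was all but fixed in advance, because the genotypes did not overlap in any of these genes. The count of genes that fell stayed within 1.5 times of 17 under other scalings, filters, tests and thresholds and under each left-out library (15 to 17), and dropped to 8 in the libraries without airway RNA, where WT replicate 2 stands alone, 10 with WT replicates 2 and 3 alone, 11 with the erythroid markers as covariate and 3 with Xist as covariate. Under Xist, 250 of all genes were called, against 2168, with 3 of the glycolytic targets, 3 of the vascular and matrix targets and 0 of the HIF cofactors lower; Xist was at 1.55 to 1.98 CPM in mutant and 1.25 to 1.56 CPM in WT libraries, so it nearly separates the genotypes, and the median standard error of the 32 was 0.091 against 0.057. Over all genes, 1036 were called at an adjusted p under 0.01, 1407 in the libraries without airway RNA, 1113 with the erythroid covariate, 749 with WT replicates 2 and 3 alone, and 1525 to 1987 without 1 library. The count of 1 that rose became 3 with no filter and in the libraries without airway RNA, 2 with the airway covariate, 0 at 0.01, in the libraries with airway RNA, with the Xist or erythroid covariate and with WT replicates 2 and 3 alone, and 0 to 1 without 1 library. Values near 0 that were not called changed sign. Hif1a (-0.02) was at 0.0285 with library totals, 0.0743 in the libraries without airway RNA, 0.0457 with the Xist and 0.021 with the erythroid covariate, and -0.0695 to 0.0044 without 1 library. Arnt (-0.02) was at 0.0371 with library totals, 0.0123 with the erythroid covariate, 0.017 with WT replicates 2 and 3 alone and -0.0327 to 0.0102 without 1 library. Kdm3a (-0.04) was at 0.0075 with library totals, 0.22 in the libraries without airway RNA, 0.13 with Xist, 0.0817 with the erythroid covariate, 0.0179 with WT replicates 2 and 3 alone and -0.0908 to 0.0082 without 1 library. Bhlhe40 (0.06) was at -0.10 in the libraries with airway RNA and -0.0289 to 0.123 without 1 library, and Egln2 (0.04) at -0.0001 with the erythroid covariate. The replicate block left 17 lower and 1 higher of the 32 and 2455 calls over all genes. Same-numbered libraries correlated at -0.475, 0.746, 0.505 and 0.0122. WT replicate 2 correlated at 0.62 and 0.746 with mutant replicates 1 and 2, and at -0.583 and -0.747 with mutant replicates 3 and 4. The airway difference was not removed from these correlations, so they cannot show whether the numbers pair the libraries. The cause of these shifts was not tested. Car12 had 5 to 17 counts per library.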
